A study of Rattus norvegicus with 3 samples.

Results

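The genes of iron uptake, storage and export were examined in rat kidney, with 10 members chosen by name. They were the transferrin receptors Tfrc and Tfr2, the iron importer Slc11a2, the iron exporter Slc40a1, the ferritin chains Fth1 and Ftl1, the iron regulatory protein Ireb2, the hormone hepcidin (Hamp) and the copper oxidases Heph and Cp. A probe was taken as a member where its RefSeq accession belonged to one of these genes. This gave 15 probes for the 10 genes, of 30367 probes on the array and 15443 genes to which a probe was matched. Kidney RNA of male Sprague-Dawley rats that drank water with 200 ppm GABA (gamma-aminobutyric acid) for 3 weeks (G200) was compared with that of the negative control. The rats were 5 weeks old at purchase and had 1 week of acclimation, and the RNA came from a kidney region free of tumor. Each of 3 Agilent arrays with 2 colours held control RNA in the green dye (Cy3) and G200 RNA in the red dye (Cy5). No array had the dyes the other way round, so an effect of the dye and an effect of GABA cannot be told apart, and all 3 arrays lay on 1 slide.

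Iron circulates bound to transferrin, enters cells through the transferrin receptor and, once reduced, crosses membranes through Slc11a2. Ferritin stores it in a shell of heavy and light chains, and ferroportin (Slc40a1) carries it out of the cell, where ferroxidases such as hephaestin and ceruloplasmin return it to the form that transferrin binds. Hepcidin, made mainly by the liver and also by tubule cells of the kidney, binds ferroportin and causes its removal, and the kidney takes filtered iron back along the tubule.

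The value of a probe is the log2 ratio of G200 over control on 1 array, so that a value above 0 means more RNA in G200. Probes entered the test if the 3 arrays all showed them well above background in 1 of the colours, and a call is a Benjamini-Hochberg adjusted p under 0.05 in limma over all 15656 probes tested. Of the 15 member probes, 12 from 8 genes were tested. The probe of Tfr2 and 1 of the probes of Tfrc were not well above background on any array in either colour, and Ireb2 was above it only in green on 1 of 3 arrays, so no fold is given for these 3. Of the 12, 3 were higher (25%, against 11.5% of all probes tested) and 4 were lower (33.3%, against 25% of all probes). Over both directions 36.5% of all probes tested were called. The median of the mean log2 ratio was 0.12 over the 12 probes and -0.04 over all probes, but it was -0.06 over the members with only the brightest probe of each gene kept. These shares moved with the scaling of the dyes. The median of all probes was 0.26 when each array was centred on its median instead of by loess, and 0.61 with no dye normalization, and 8 and 10 member probes were then higher and 2 lower in both cases. Leaving out replicate 1 or replicate 3 left 0 member probes called higher in limma (2 and 3 at an unadjusted p under 0.05), and 3 lower. The probes called in all then fell from 5708 to 3757 and 1780.

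**Figure D1:**
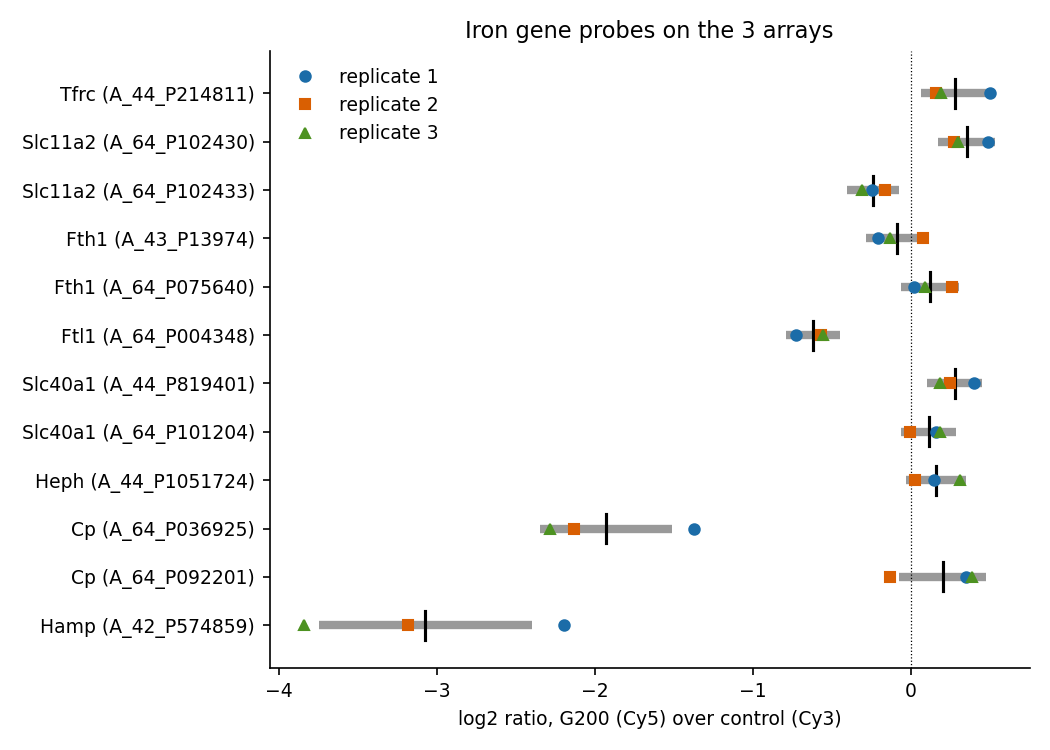
Log2 ratio of G200 over control (horizontal axis) for the 12 iron gene probes tested, with 1 symbol per array, the mean as a black line and its 95% interval from limma as a grey bar. Hamp and 1 of the probes of Cp lie far below 0 on all 3 arrays, and the other probes have means between -0.62 and 0.35.

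Hepcidin had the largest change among the member probes. Its probe (NM_053469) was printed in 10 spots per array. The control level was 10.36, 10.37 and 10.34 on the log2 scale on replicates 1, 2 and 3, and the G200 level was 8.16, 7.19 and 6.50. The control levels lay close together, the G200 levels spread widely with replicate 3 lowest, and the groups did not overlap. The log2 ratio was -2.20, -3.18 and -3.84, with a mean of -3.07 (SD 0.83, n = 3, 95% interval -3.75 to -2.40), an 8.42-fold lower level in G200 with an adjusted p of 0.00117 in limma. The spots of 1 array differed far less than the arrays did, with an SD of 0.06 over 9 spots, 0.05 over 8 spots and 0.11 over 8 spots. In kidney RNA as a whole, fewer cells that make a transcript and less of it per cell cannot be told apart.

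Ceruloplasmin, the ferroxidase of plasma, was measured by probes for 2 transcripts that did not move together. For NM_012532 the control level was 11.19, 11.14 and 11.14 and the G200 level was 9.83, 9.01 and 8.85, with no overlap and replicate 1 least reduced. The mean log2 ratio was -1.93 (SD 0.49, n = 3, 95% interval -2.34 to -1.51), 3.80-fold lower in G200 with an adjusted p of 0.00113. For NM_001270961 the log2 ratio was 0.35, -0.13 and 0.39, with a mean of 0.20 and an adjusted p of 0.208. The groups overlapped there. The difference between the probes was -1.72, -2.00 and -2.67 on the 3 arrays. The second probe was called higher without replicate 2, with a mean of 0.37, and also with median centring (0.88) and with no dye normalization (1.23). Both probes carry the same gene symbol, and which transcripts each of them detects was not tested.

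The sequence upstream of Hamp and Cp is shown because these genes held the largest falls among the members. Both are the 250 bases before the transcription start in RefSeq GRCr8, 5′ to 3′, for Hamp at chr1:95300272-95300521 on the minus strand and for Cp at chr2:104368420-104368669 on the plus strand. Capitals mark matches on either strand to the core of the BMP-responsive element (GGCGCC), the STAT palindrome (TTCNNNGAA), the cores of the hypoxia response element (ACGTG, and the variant GCGTG), the TATA box (TATAAA) and the CAAT box (written CCAAT).
Hamp: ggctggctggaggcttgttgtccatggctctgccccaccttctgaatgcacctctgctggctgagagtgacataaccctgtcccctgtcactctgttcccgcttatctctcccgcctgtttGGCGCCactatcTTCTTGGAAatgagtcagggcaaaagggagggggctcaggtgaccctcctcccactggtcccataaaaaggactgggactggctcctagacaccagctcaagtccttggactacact
Cp: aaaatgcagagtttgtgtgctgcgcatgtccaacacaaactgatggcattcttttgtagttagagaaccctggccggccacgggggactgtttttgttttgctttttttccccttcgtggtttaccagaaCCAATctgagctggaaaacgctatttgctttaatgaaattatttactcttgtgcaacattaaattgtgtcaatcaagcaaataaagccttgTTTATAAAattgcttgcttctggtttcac
Hamp held the BMP-responsive core 129 bases and the STAT palindrome 117 bases before the start. Cp held overlapping TATA box matches on both strands, 29 and 27 bases before the start, and the CAAT box 120 bases before it. Of 33469 upstream sequences of this length, 8.69% held the BMP-responsive core, 7.67% the STAT palindrome, 16.6% the hypoxia core and 25.9% its variant, 12.9% the TATA box and 34% the CAAT box. Of the 8 member genes with an entry, Tfrc held the BMP-responsive core, both hypoxia cores and the CAAT box. Tfr2 and Heph held the hypoxia variant alone, Slc11a2 held it with 2 matches to the CAAT box in 1 of its 2 entries and none of the 6 in the other, and no match to any of the 6 was found in Ireb2 and Slc40a1. The motifs were chosen after the sequences had been seen, and a match describes the letters only.

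The falls of Hamp and Cp lay beside falls of genes that mark the liver. All 16 liver marker probes tested, of 18 genes on the list, were lower in G200 on each of the 3 arrays. All were past the threshold (100%, against 25% of all probes tested called lower). Their means ran from -4.05 for Apoc1 to -1.22 for Cyp2c11, with a median of -2.99. None of the 18 is a member of the iron genes. Cps1 and Tat, enzymes of the urea cycle and of tyrosine breakdown, were not well above background in either colour. Transthyretin (Ttr) had the highest mean signal of the list over the 3 arrays in control and in G200, though Alb was above it in the control of replicates 2 and 3 and in G200 on replicate 2. Ttr had log2 ratios of -1.86, -3.80 and -5.49. The summed signal of the 16 probes was 147066, 174886 and 186139 in the control of replicates 1, 2 and 3, and 42417, 15676 and 6297 in G200. Replicate 1 had the smallest and replicate 3 the largest reduction of the sum, as of Hamp, of the lower Cp probe and of Tf. Whether RNA of liver cells in the control had a part in the falls of these iron genes was not tested. With a variance model robust to probes of large spread, which leaves the means as they are, 1 of the 16 liver probes passed the threshold. It was 13 with median centring, 12 with no dye normalization, 12 without replicate 2 and 14 without replicate 3. With the methods' t-test it was 0 after adjustment, on the array log ratios and on the 2 channels. Without adjustment it was 2 and 3. Tf lost its call under the robust model, and Hamp and the lower Cp probe kept theirs.

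**Figure D2:**
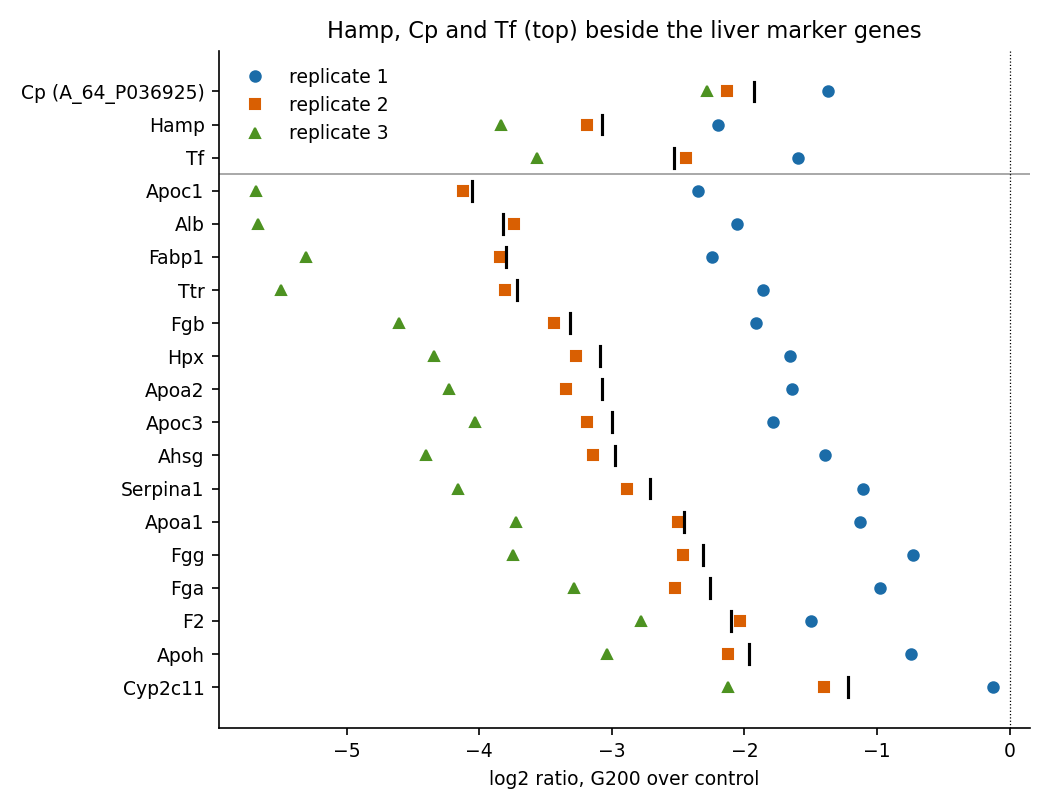
Log2 ratio of G200 over control (horizontal axis) for Hamp, the lower Cp probe and Tf above the line and the 16 liver marker probes below it, with 1 symbol per array and the mean as a black line. All 3 arrays lie below 0 for each gene, with replicate 3 lowest.

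Of the ferritin chains, 1 was called. Ftl1, the light chain, had control levels of 15.99, 15.82 and 15.81 and G200 levels of 15.26, 15.25 and 15.25, which did not overlap. Its mean log2 ratio was -0.62 (SD 0.10, n = 3), 1.54-fold lower with an adjusted p of 0.00214, but it was 0.28 with median centring and 0.63 with no dye normalization, so its direction rests on the scaling of the dyes. Fth1, the heavy chain with ferroxidase activity, was not called by either of its probes. Their means were -0.09 (95% interval -0.28 to 0.10) and 0.12 (-0.06 to 0.31), and the levels in the groups overlapped. Both were called higher with median centring (0.81 and 1.02) and with no dye normalization (1.16 and 1.37). The difference between the chains was not tested.

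Among the importers, the transferrin receptor Tfrc had log2 ratios of 0.50, 0.16 and 0.19 on its probe above background. Replicate 1 stood above the others. The mean was 0.28 (SD 0.19, n = 3), 1.22-fold higher with an adjusted p of 0.0498, just inside the threshold, and the call was lost without any 1 of the 3 arrays (0.17 without replicate 1, 0.34 without replicate 2 and 0.33 without replicate 3). The mean was 0.80 with median centring and 1.15 with no dye normalization, so its size also rests on the scaling.

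Slc11a2, which carries ferrous iron across the cell and endosome membranes, was measured by probes that moved in opposite directions although both carry the accession NM_013173. On A_64_P102430 the control level was 6.66, 6.70 and 6.71 and the G200 level 7.15, 6.97 and 7.01. On A_64_P102433 the control level was 10.34, 10.30 and 10.32 and the G200 level 10.09, 10.14 and 10.01. The groups overlapped on neither probe. The means were 0.35 (1.28-fold higher, adjusted p 0.0142) and -0.24 (1.18-fold lower, adjusted p 0.0352), the first moving to 0.59 and 0.94 and the second turning to 0.46 and 0.81 with median centring and with no dye normalization. The call of each probe was lost without replicate 1 (means of 0.29 and -0.24) and without replicate 3 (0.38 and -0.21). With an offset of 0 and with the deposited log ratio the first had means of 0.69 and 1.00. The second was then not called (-0.26 and -0.25, adjusted p 0.105 and 0.113). No single direction is given for the gene.

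**Figure D3:**
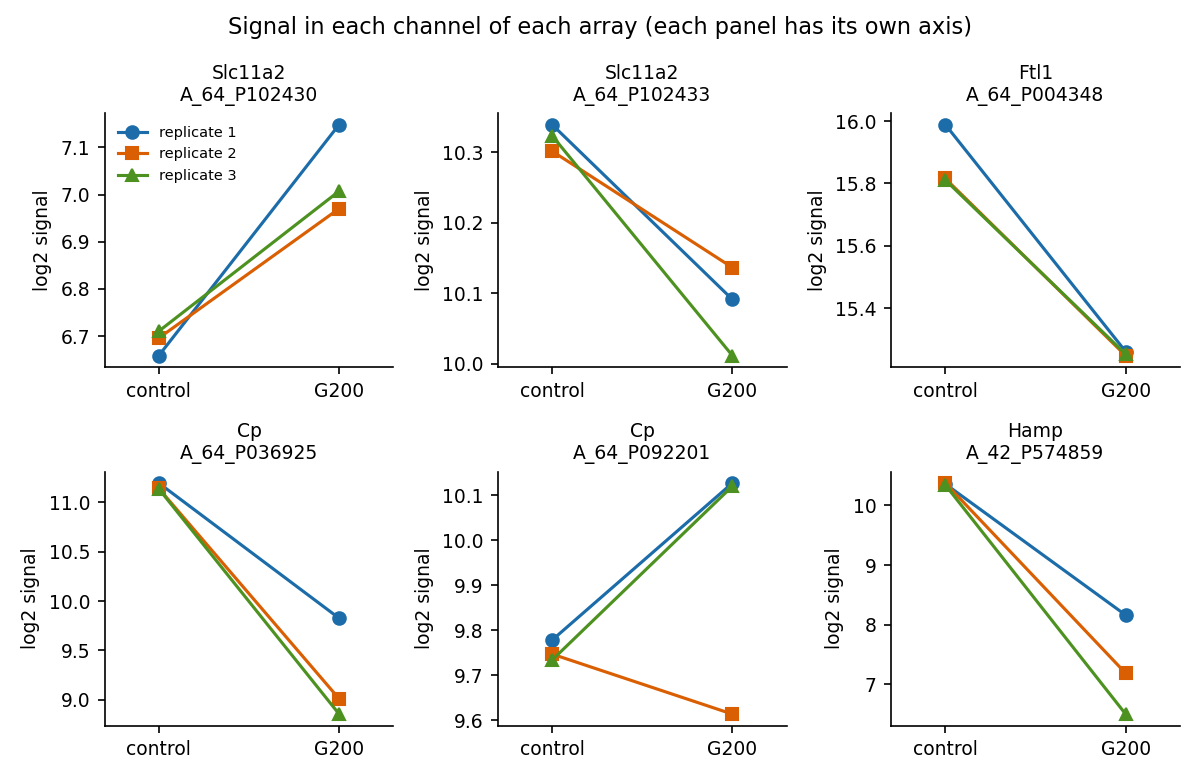
Log2 signal (vertical axis, a different range in each panel) in the control and G200 channels of each array for the probes of Slc11a2, Ftl1, Cp and Hamp, with a line joining the channels of 1 array. The probes of Slc11a2 run in opposite directions on all 3 arrays, while the Cp probe for NM_012532 runs down on all 3 and that for NM_001270961 up on 2.

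The exporter Slc40a1 was called by 1 of its probes. On A_44_P819401 the control level was 6.87, 6.83 and 6.95 and the G200 level was 7.27, 7.07 and 7.13, without overlap. The mean log2 ratio was 0.28 (SD 0.11, n = 3), 1.21-fold higher with an adjusted p of 0.0294, and the call was lost without any 1 of the arrays, with means of 0.21 to 0.32. The mean was 0.57 with median centring and 0.92 with no dye normalization. With an offset of 0 and with the deposited log ratio it was 0.49 and 0.73, so its size rests on the processing. On A_64_P101204 the mean was 0.11 (95% interval -0.06 to 0.28, adjusted p 0.256). Hephaestin (Heph), the membrane-bound ferroxidase that works with the exporter, had log2 ratios of 0.14, 0.02 and 0.31. Its mean of 0.16 was not called (adjusted p 0.157), and the groups overlapped. Heph and the second probe of Slc40a1 were both called higher with median centring (0.61 and 0.55) and with no dye normalization (0.96 and 0.90).

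**Figure D4:**
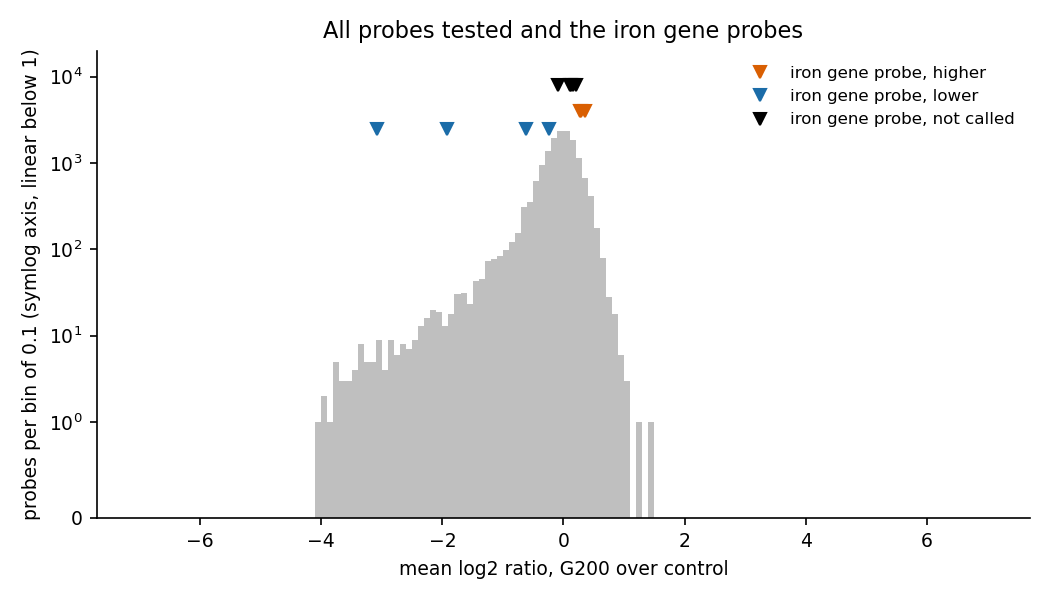
Number of probes (vertical axis, symmetrical log scale) by mean log2 ratio of G200 over control (horizontal axis, bins of 0.1) for all 15656 probes tested, with the iron gene probes as triangles coloured by call. Hamp at -3.07 and Cp at -1.93 lie in the long lower tail, and the other members lie within the body of the distribution.

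A wider list of 51 iron genes was examined by role, 45 of them with a probe on the array. Of 39 probes tested, 5 were higher (12.8%) and 5 lower (12.8%), with a median of 0.04, against 11.5%, 25% and -0.04 over all probes. Without replicate 3, 0 were higher in limma (5 at an unadjusted p under 0.05) and 2 lower, and 3 were lower without replicate 1 or 2. With both colours required to be well above background, 3 were lower, without Slc39a14 and Hjv. Among uptake genes and carriers, 1 of 10 probes tested was higher (10%) and 2 were lower (20%). Transferrin (Tf), the plasma carrier made mainly by the liver, had log2 ratios of -1.60, -2.44 and -3.57. Its mean was -2.53 (SD 0.99, n = 3), 5.79-fold lower with an adjusted p of 0.00332, and the call was lost under the robust variance model (adjusted p 0.0561). Slc39a14, a zinc and iron importer, had 1 probe that was not well above background on any array in either colour. Its other probe was well above background in the control on all 3 arrays and not well above background in G200 on any array. This probe was at least 1.24-fold lower with an adjusted p of 0.00836. It entered the test through the control alone. It was also called with no filter on dim probes (adjusted p 0.00516). The call was lost with no dye normalization (-0.22) and without replicate 3 (-0.38). Against a mean of -0.37 in the reported fit, it was -1.64 with an offset of 0 and -2.45 with the deposited log ratio. Its size therefore rests on the processing, and the bound is that of the reported fit. Lcn2, which binds bacterial iron carriers, rose by 0.35 on the log2 scale (adjusted p 0.0178), a call lost without replicate 3 (0.28). With median centring and with no dye normalization its mean was 0.63 and 0.98.

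Among cytosolic handling and sensing genes, 1 of 5 probes tested was higher (20%, against 11.5% of all probes tested) and 0 were lower (against 25%). The higher probe was that of Aco1, the iron regulatory protein that is also the cytosolic aconitase. It had log2 ratios of 0.24, 0.43 and 0.70 and a mean of 0.46 (adjusted p 0.0154). That call was lost without replicate 2 (0.47), without replicate 3 (0.34) and with separate channels and no replicate block (adjusted p 0.0518). The mean was 1.18 with median centring and 1.53 with no dye normalization. Herc2 had a mean of 0.19 (adjusted p 0.0764). The probes of Pcbp2, a chaperone that delivers iron, had means of 0.20 and -0.01 and were not called.

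Of 11 probes tested for the control of hepcidin, 1 was higher (9.09%) and 2 were lower (18.2%), with a median of -0.18. Over all probes tested these shares were 11.5% and 25%. The median is the value of Tmprss6 (not called), which was well above background in G200 on 1 of 3 arrays. Tmprss6 entered the test through the control alone, and Smad4 (0.04, not called) through G200 alone. Bmpr1a, a receptor of bone morphogenetic proteins, had log2 ratios of 0.48, 0.24 and 0.48 and a mean of 0.40 (adjusted p 0.0109), a call lost without replicate 3 (0.36), with means of 0.84 and 1.19 under median centring and no dye normalization. The ligand Bmp2 had a mean of -0.28 (adjusted p 0.0203), which turned to 0.24 with no dye normalization. The call was also lost with median centring (-0.11), with separate channels and no replicate block (adjusted p 0.302) and without any 1 of the arrays, with means of -0.29 to -0.25. The other lower probe was that of the coreceptor Hjv, which was well above background in G200 on 1 of 3 arrays and entered the test through the control alone. Its mean was -0.23 (adjusted p 0.0471, and 0.0447 with no filter on dim probes). That call was lost without any 1 of the arrays, with either of the other dye scalings (-0.36 and -0.00), with no background subtraction (-0.13) and with the deposited log ratio (-1.28), so no direction is given for Hjv. Bmpr2 had a mean of 0.28 and was not called (adjusted p 0.0902).

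Of 13 probes tested for mitochondrial iron and iron-sulfur clusters, 2 were higher (15.4%) and 1 was lower (7.69%). The shares of all probes tested were 11.5% and 25%. Nfs1, the cysteine desulfurase that supplies the sulfur, had log2 ratios of 0.80, 0.35 and 0.57 and a mean of 0.57 (adjusted p 0.0076). Isca1, a late assembly factor, had 1 probe higher with a mean of 0.40 (adjusted p 0.0103) and another at 0.07 that was not called. Both calls were lost without replicate 3, with means of 0.57 for Nfs1 and 0.38 for Isca1. That of Nfs1 was also lost with separate channels and no replicate block (adjusted p 0.0827). With median centring and with no dye normalization the means were 1.16 and 1.51 for Nfs1 and 1.11 and 1.46 for Isca1. The mitochondrial iron importer Slc25a28 had 1 probe lower with a mean of -0.41 (adjusted p 0.00988), which turned to 0.28 with median centring and 0.63 with no dye normalization, and another at 0.02.

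**Figure D5:**
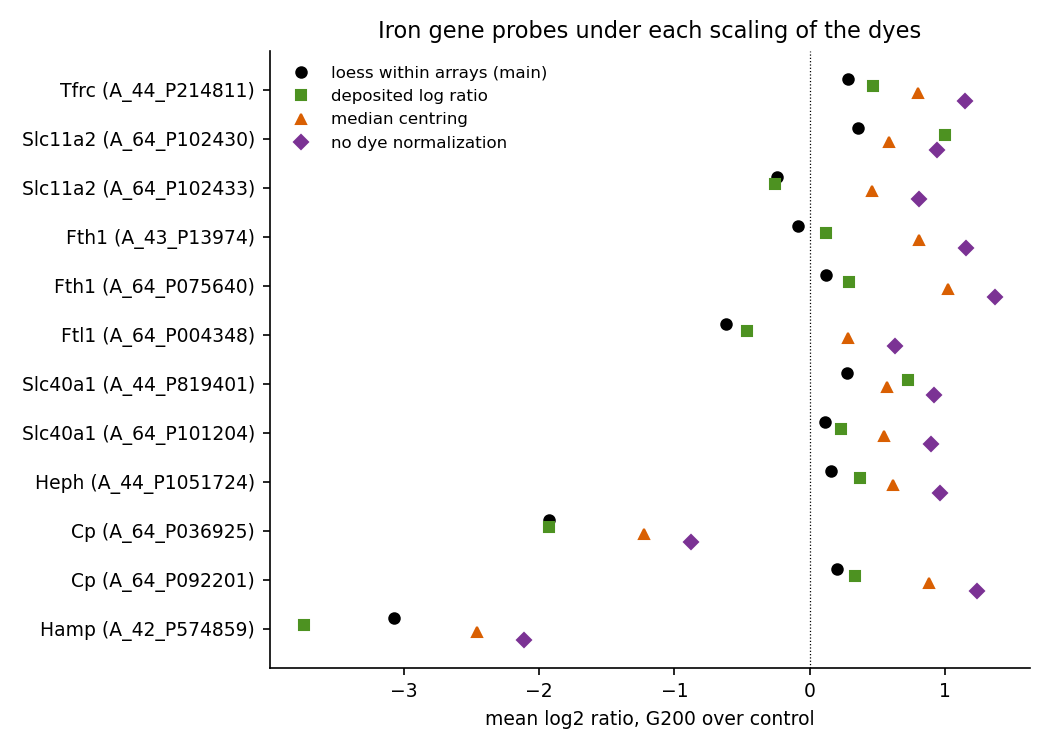
Mean log2 ratio of G200 over control (horizontal axis) of the 12 iron gene probes under 4 ways of scaling the dyes, with 1 symbol for each. Hamp and the lower Cp probe lie below 0 under all 4, while Ftl1, 1 of the probes of Slc11a2 and 1 of Fth1 cross 0.

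The tissue label was checked against markers of the kidney. Of 24 such genes, 22 had a probe tested, and Slc5a12 and Calb1 did not reach that on all 3 arrays in either colour (Calb1 was well above background in the control on 1 array and in G200 on 2, and a probe of Slc5a12 in G200 on 1). The summed signal of the tested probes was 144514, 134308 and 139772 in the control and 155487, 149678 and 149641 in G200. The sums follow the brightest probes. The sum was higher in G200 on all 3 arrays for the thick ascending limb and for podocytes, and lower on all 3 for the proximal tubule and for the distal tubule and collecting duct. The brightest probe of the thick ascending limb was that of uromodulin (Umod, mean 0.87, called higher, with 0.82 to 2.11 over 18 alternatives). Slc12a1 was next there (-0.18, not called). In the proximal tubule the brightest was Miox (-0.25, called lower, but 0.65 with median centring and 1.00 with no dye normalization). In the distal tubule and collecting duct the brightest was Aqp2 (-0.30, not called). Miox, Slc12a1 and Aqp2 were chosen after their values were seen. By count, 3 of 9 probes tested of the proximal tubule were higher and 1 lower (median log2 ratio 0.06), 2 of 5 of the thick ascending limb were higher (0.21), 0 of 6 of the distal tubule and collecting duct were called (0.10) and 1 of 5 of podocytes was higher (0.36). All 5 podocyte probes were above 0 on all 3 arrays, with a summed signal of 1336, 1331 and 1284 in the control and 2204, 1421 and 1547 in G200. Over all 25 kidney marker probes, 6 were higher (24%, against 11.5% of all probes tested) and 1 lower (4%, against 25%). Of 9 probes tested for red cells, 0 were higher and 3 were lower (33.3%, against 25% of all probes tested). They were Slc4a1 (-0.68), 1 of the probes of Ahsp (-0.37) and Klf1. Klf1 was not well above background in G200 on any array and was at least 1.24-fold lower (adjusted p 0.0278). Klf1 entered the test through the control alone, and was also called with no filter on dim probes (adjusted p 0.024), but its call was lost without replicate 1, without replicate 3 and with no dye normalization. Slc4a1 moved to -0.01 with median centring and turned to 0.34 with no dye normalization, and Ahsp to 0.04 and 0.39 with median centring and with no dye normalization. With 1 array left out, the mean of this Ahsp probe ran from -0.45 to -0.22, and its call held in 8 of 18 alternatives. The summed red cell signal was 88005, 97246 and 113871 in the control and 103189, 98032 and 54227 in G200, so replicate 3 alone had a low sum. The highest mean signal in the control was that of Hbb, which was not called by either probe, and Epb42, Gata1 and Rhag were not well above background. Of 8 macrophage probes tested, C1qb, with the highest mean signal, was lower (-0.43, but 0.23 with median centring and 0.58 with no dye normalization) and 7 were not called. The share lower was 12.5%, against 25% of all probes tested. The summed macrophage signal was 1877, 1889 and 1986 in the control and 2069, 1529 and 1704 in G200, and Marco, Mrc1 and Vsig4 were not well above background, nor was Cd163 except in the control on 1 array. The part of red cells and macrophages in the values of the iron genes was not tested.

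At the median probe, the 3 control channels differed by no more than replicate spots did. The variance between arrays was 0.559 times that expected from replicate spots in green (median of 1117 probes) and 5.73 times in red (1097 probes). The control was therefore counted as 1 sample, though some single probes had a wider spread in it. Examples were Nfs1, with levels of 7.94, 8.61 and 8.64, and the liver marker Alb, with 14.44, 15.74 and 15.93. No test here includes how control rats differ from each other. The p-values measure only the spread between these samples, which may be technical, and the smallest two-sided p of an exact permutation of signs over 3 arrays is 0.25.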

How the data were processed

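Kidney RNA was measured on 3 arrays with 2 colours, control in Cy3 and G200 in Cy5. The authors deposited Agilent Feature Extraction output, with uncorrected median intensities per colour for every spot and the background around it. The deposited log10 ratio (red over green) served only as an alternative. The background was corrected with limma 3.58.1 in R 4.3.3 (normexp, offset 50), followed by loess between the dyes of each array. Control spots (1224 positive and 153 negative) and outlier spots (635, 736 and 945 on replicates 1, 2 and 3) were left out. Spots of a probe were averaged, and every probe was kept. A probe was well above background on an array where at least a share of 0.5 of its unflagged spots were, as Feature Extraction marks them. In green, 59.8%, 62.7% and 62.3% of the spots on replicates 1, 2 and 3 were, and in red 63%, 56.6% and 61%. Accessions were matched to symbols of the NCBI RefSeq table of GRCr8, which named 18355 of 30367 probes (60.4%).

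A two-sided limma test (lmFit, then eBayes) compared mean log2 ratios with 0, and p-values were adjusted by Benjamini-Hochberg over all probes tested. The array pairs control and G200 and is the block. Channel levels are log2 signals after loess and between-array scaling by Aquantile. Where 1 group was not well above background on any array, the fold is a bound. It is the mean of the other group over, per array, the dim probe's signal or the lowest signal among probes well above background, whichever is higher, and it is open to dye bias. A probe could pass the filter through 1 group alone. The number of arrays limits the precision. The fit was tested on simulated data. It called fewer of the changed probes than a floor set for this test at first, which was then replaced by checks of bias, interval cover, test size and false calls, and these were met. Figures were drawn with matplotlib 3.10.9.

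All probes of the 10 members were named. Of the wider list, genes with a probe past the threshold were named, and the 3 of each subgroup with the largest absolute mean log2 ratio among those tested. Tmprss6 and Smad4 were named in addition, for how they entered the test. Members and lists were chosen with earlier results of these data known. The result of 1 marker gene is not reported here. The alternatives tried were other dye scalings, background corrections and filters, the deposited log ratio, outlier spots kept, the brightest probe per gene, a robust variance model, separate channels, the methods' t-test and each array left out in turn. For the marker probes called outside the liver list, these were added after seeing the data.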

Additional observations from a re-analysis of the deposited data

How the results depend on the processing

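Hamp kept its direction under all 18 alternatives, with means from -3.74 to -2.11, and so did the Cp probe for NM_012532, with means from -2.21 to -0.87. Both were called in 16 of them, all but the methods' t-test after adjustment. The call of Ftl1 held in 14, that of the higher Slc11a2 probe in 13 of 17, that of the lower one in 10 of 18 in its own direction, that of Slc40a1 in 12 of 17 and that of Tfrc in 7 of 18.

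The scaling of the dyes turned the direction of 3 of the 12 member probes tested. With median centring, 8 member probes were higher and 2 lower, against 3 and 4, and 19 and 2 of the wider list, against 5 and 5. With no dye normalization these counts were 10 and 2, and 27 and 1, and 9040 probes were called in all, against 5708. The share of calls that were higher was 31.5% in the reported fit, 80.1% with median centring and 96.4% with no dye normalization. Median centring and no dye normalization turned the lower Slc11a2 probe (0.46 and 0.81), Ftl1 (0.28 and 0.63), Fth1 on A_43_P13974 (0.81 and 1.16) and Slc25a28 (0.28 and 0.63). No dye normalization turned Bmp2 (0.24) and Slc4a1 (0.34). Of the marker genes called, Miox (0.65 and 1.00), 1 probe of Ahsp (0.036 and 0.39) and C1qb (0.23 and 0.58) turned with both. Fth1 on A_43_P13974, not called, was also 0.030 with an offset of 0 and 0.12 with the deposited log ratio. The cause was not tested.

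When the methods' t-test was run on the array log ratios, 2 probes were called after adjustment, and 0 members and 0 of the wider list in either direction. Without adjustment it called 2 members higher and 4 lower, and 4 and 7 of the wider list. On the 2 channels it called 317 probes after adjustment, 0 of them members or of the wider list, and without adjustment 2 members higher and 4 lower, and 2 and 3 of the wider list. Separate channels with no replicate block called 3 probes of the wider list higher and 3 lower. The deposited log ratio called 8 of the wider list higher, well above background in both colours left 3 lower, and the brightest probe per gene left 1 member higher, since fewer probes were tested.

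Leaving out 1 array gave 1780 to 5383 called probes. It gave 0 to 2 members higher and 3 to 4 lower, and 0 to 7 of the wider list higher and 2 to 3 lower. The member count of 0 came from limma without replicate 1 and without replicate 3, where 2 and 3 were higher at an unadjusted p under 0.05. The wider count of 0 came from limma without replicate 3, where 5 were. A random block for the slide was not run, because all 3 arrays lay on 1 slide. Signals near background limit the ratios of Tfr2, Ireb2 and 1 probe of Tfrc. Among the probes tested, dim signals also limit the size given for the higher Slc11a2 probe and for Slc40a1 on A_44_P819401. Their means were 0.69 and 0.49 with an offset of 0, against 0.35 and 0.28 in the reported fit. The G200 signal of Hamp was low on replicate 3.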
